A study of Mus musculus with 11 samples.

Results

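The collagen chain genes of the mouse were taken as every protein-coding gene whose name has the form Col, a type number, the letter a and a chain number, which gave 44 genes of the 55487 listed (21936 of them protein-coding). They were read in 3 classes, with 11 chains of fibrillar collagens, 6 chains of the basement membrane collagen type IV and 27 others. The 27 others were 9 fibril-associated collagens, 6 chains of the beaded filament collagen type VI, 4 transmembrane collagens, 3 short-chain collagens, 2 multiplexins, 1 anchoring fibril collagen and 2 unclassed genes.

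RNA sequencing counts covered 11 libraries from MC38, a mouse colon carcinoma line grown as tumours and carrying a short hairpin that is either the control (shNC) or directed at Fgf21 (shFgf21). T cells sorted from such tumours gave 3 shNC and 2 shFgf21 libraries, and material labelled as tumours gave 3 and 3. The series asks how FGF21 from tumour cells acts on T cells, and the collagen chains report on the extracellular matrix of the same material. All control libraries have the genotype label WT. Titles of the control tumours and of shNC sorted replicate 3 carry the code NC, but those of shNC sorted replicates 1 and 2 carry only N, so these were grouped by the genotype label, and whether their tumours held the control hairpin is not stated. In shFgf21 sorted replicate 2 the genotype label names FGF22, while its title has the form of its partner's. Titles of sorted libraries join several numbers, which may mark pooled animals, and neither the animals' age or strain nor the number of hairpin clones is stated. Both shFgf21 sorted libraries and shNC sorted replicate 3 join numbers that also stand on tumour titles of their hairpin, so sorted and tumour material may share animals, and the tests treat the libraries as independent. Whether replicates stem from different animals is not stated either, and p-values therefore reflect only the scatter among these libraries, part of which may be technical.

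Collagens are built from chains that wind into a triple helix, and the chains that a cell makes decide which assembly can form. Fibrillar collagens bundle into the fibres of connective tissue, type IV collagen forms the sheet of basement membranes, and the other types decorate fibrils, link them to membranes or form networks of their own. In tumours the chains are made mainly by fibroblasts and other mesenchymal cells, and T cells are not known as a source of fibrillar collagen.

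Library totals ran from 14944013 to 19099350 counts. Fgf21 had 0, 2 and 1 counts in the shNC tumours and 0 in every other library, so the knockdown could not be checked at this depth. Neither kind of library matched its label in full. In the sorted libraries 11 T cell markers together took 0.0277 to 0.0567% of counts and 10 macrophage markers took 0.977 to 1.51%, most of it Lyz2. In the tumour libraries these markers took at most 0.000227% and 0.00219%, with Cd3e, Cd8b1, Cd2 and Cd28 at 0 in all 6. Of 8 epithelial markers, Krt20 was at 0 in all tumours, and the list took at most 0.000708% there, while 10 fibroblast markers took 0.173 to 0.26%. The labels call these cells both MC38 and mesenchymal. In shNC tumour replicate 1 several collagens stood far above the other 2 shNC tumours, and the differences that it moves most are also given without it.

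Promoter sequence is shown for the chain with the highest level per length in each class, Col3a1, Col4a2 and Col6a1, and for Col1a2, chosen after its values were seen because it varied most among the abundant fibrillar chains. The windows are from RefSeq (GRCm38.p6, the mm10 build), 250 bases before to 50 bases after the start, and 35 of the 44 members have one. Capitals mark the CCAAT box (CCAAT) and the GC box (GGGCGG), each on either strand (ATTGG and CCGCCC where read from the other strand), and the TATA box (TATAAA) on the gene's strand.
Col3a1: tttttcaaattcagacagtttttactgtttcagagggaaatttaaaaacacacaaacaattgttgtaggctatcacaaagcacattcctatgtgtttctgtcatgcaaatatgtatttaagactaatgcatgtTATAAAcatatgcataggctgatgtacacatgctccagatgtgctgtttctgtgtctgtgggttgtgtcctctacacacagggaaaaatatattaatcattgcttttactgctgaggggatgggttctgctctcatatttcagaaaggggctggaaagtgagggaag
Col1a2: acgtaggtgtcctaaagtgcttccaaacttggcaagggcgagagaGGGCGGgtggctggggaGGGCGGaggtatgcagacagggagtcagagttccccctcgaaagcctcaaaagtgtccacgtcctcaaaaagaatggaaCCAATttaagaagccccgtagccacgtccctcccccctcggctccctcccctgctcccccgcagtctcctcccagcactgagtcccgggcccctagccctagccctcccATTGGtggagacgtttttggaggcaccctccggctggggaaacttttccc
Col6a1: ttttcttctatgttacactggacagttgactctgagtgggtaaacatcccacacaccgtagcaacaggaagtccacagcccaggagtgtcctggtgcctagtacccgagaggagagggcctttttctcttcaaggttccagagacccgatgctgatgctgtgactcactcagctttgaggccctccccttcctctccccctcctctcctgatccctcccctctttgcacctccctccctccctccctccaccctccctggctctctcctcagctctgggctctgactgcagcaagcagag
Col4a2: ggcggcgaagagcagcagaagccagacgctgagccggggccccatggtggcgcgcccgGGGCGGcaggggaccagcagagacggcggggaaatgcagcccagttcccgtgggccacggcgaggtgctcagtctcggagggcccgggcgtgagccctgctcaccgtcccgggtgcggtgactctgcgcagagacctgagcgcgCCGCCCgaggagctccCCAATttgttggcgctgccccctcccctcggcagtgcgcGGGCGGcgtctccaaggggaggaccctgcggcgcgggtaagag

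The Col3a1 window (chr1:45311288-45311587, plus strand) held 1 TATAAA, neither of the other motifs and 37.7% G and C. By contrast the Col1a2 window (chr6:4505368-4505667, plus strand) held 2 CCAAT and 2 GGGCGG matches at 61% G and C. None of the motifs was in the Col6a1 window (chr10:76725995-76726294, minus strand, 57.3% G and C). The Col4a2 window (chr8:11312555-11312854, plus strand) held 1 CCAAT and 3 GGGCGG matches at 73.7% G and C. It shares 78 bases with the Col4a1 window on the other strand, since both genes start head to head and their transcribed parts overlap by 22 bases. Among all 27025 promoters of this length CCAAT was in 37.9%, GGGCGG in 35.9% and TATAAA in 8.88%, against 12, 22 and 5 of the 35 members. A match is a description of letters and not a site.

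Of the 44 genes, 29 had more than 3 counts in every library and 20 reached a mean of 10 CPM (the count rate per library total, TMM scaled over all 11 libraries) in at least 1 group. Col4a6, Col9a1 and Col19a1 had no counts anywhere, where a count of 0 allows up to 3 counts, or 0.157 to 0.201 CPM, counting error only. Col9a2, Col13a1, Col25a1 and Col26a1 never passed 3 counts. Together the 44 genes took 0.693% ± 0.0496 of all counts in shNC sorted libraries (SD, n = 3), 0.711% ± 0.0117 in shFgf21 sorted libraries (n = 2), 1.21% ± 0.122 in shNC tumours and 1.09% ± 0.168 in shFgf21 tumours (n = 3 each). Every tumour library, at 0.963% or more, was above every sorted library, at 0.746% or less. Of the tumour share, fibrillar chains took 0.402 to 0.734%, basement membrane chains 0.0131 to 0.0284% and the others 0.535 to 0.665%, of which type VI chains took 0.429 to 0.542%.

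On the FPKM scale, which is per length and allows genes to be compared, Col3a1 led in the mean of the 4 group means at 277, followed by Col6a1 at 253, Col6a3 at 122, Col6a2 at 85.2, Col1a1 at 70.4, Col5a1 at 51.1 and Col16a1 at 48.1. The order of the leading 2 genes was not the same in both tumour groups, since Col3a1 was at 349 ± 19.8 FPKM and Col6a1 at 311 ± 25 in shNC, and at 319 ± 58.7 and 342 ± 53.6 in shFgf21. Basement membrane chains were far lower, with Col4a2 at 11.6, Col4a1 at 4.88 and Col4a5 at 4.19. The cartilage chain Col2a1 was at 0.0541 FPKM and the hypertrophic cartilage chain Col10a1 at 0.0261.

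**Figure D1:**
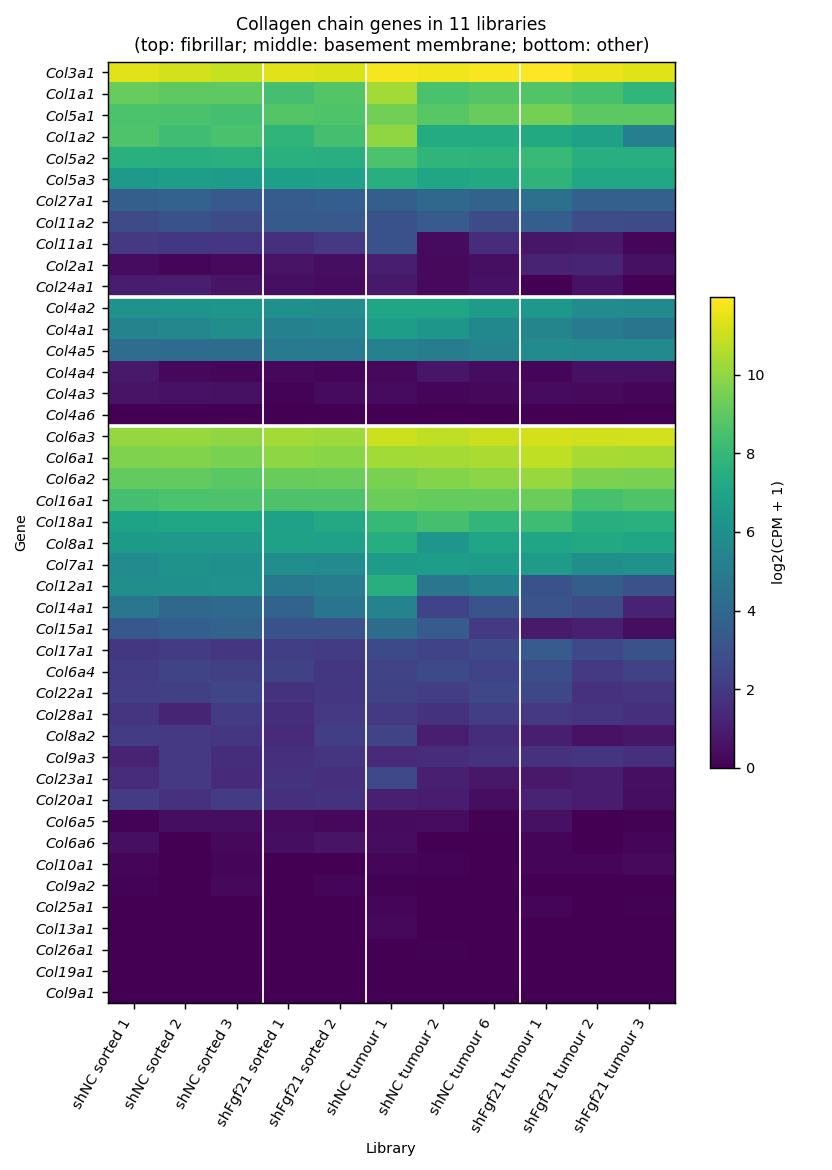
Level of each of the 44 collagen chain genes (rows, by class) in each of the 11 libraries (columns), as log2 of CPM plus 1 in colour. Col3a1, Col6a1 and Col6a3 are high in every column, Col4a6, Col9a1 and Col19a1 are at 0 throughout, and the column of shNC tumour replicate 1 stands out for Col1a1, Col1a2 and Col12a1.

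Among the abundant fibrillar chains the steadiest in tumours was Col3a1, which forms type III collagen, the fine fibrils of soft tissue. Col3a1 was at 2728, 2258 and 2025 CPM in the shNC sorted libraries, 2741 and 2615 in the shFgf21 sorted libraries, 3551, 3314 and 3733 in the shNC tumours and 4025, 3202 and 2695 in the shFgf21 tumours. The knockdown groups overlapped in both kinds of sample. A small RNA gene, Gm47302, lies within Col3a1 on the same strand with 17629 counts over all libraries against 547498 for Col3a1, and such reads cannot be told apart.

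The partner chains of type I collagen, the main fibre of skin, tendon and bone, varied far more in tumours. Col1a1 was at 576, 518 and 512 CPM in the sorted shNC libraries, 344 and 441 in shFgf21 sorted libraries, 1273, 373 and 431 in shNC tumours and 428, 359 and 235 in shFgf21 tumours. Col1a2 was at 410, 317 and 371, then 225 and 345, then 1025, 164 and 163, then 155, 113 and 34.9 CPM in the same order. In both genes shNC tumour replicate 1 was highest of all libraries and shFgf21 tumour replicate 3 was lowest. For Col1a1 the tumour groups overlapped, while for Col1a2 all shFgf21 tumours were below all shNC tumours by a narrow margin (155 against 163 CPM).

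Type V chains, which join type I fibrils and set their width, varied less in tumours than the type I chains. Col5a1 was at 382, 373 and 332 CPM (shNC sorted), 441 and 408 (shFgf21 sorted), 692, 463 and 576 (shNC tumours) and 712, 490 and 493 (shFgf21 tumours). Col5a2 was at 192, 180 and 191, then 191 and 184, then 387, 228 and 221, then 271, 187 and 190 CPM. Col5a3 was at 84.5, 103 and 94.8, then 108 and 113, then 183, 129 and 156, then 221, 145 and 138 CPM. In sorted libraries Col5a1 and Col5a3 were slightly higher in shFgf21 without overlap, and in tumours all of the type V chains overlapped between groups. Col27a1, a chain of cartilage fibrils, was at 11.3, 12.7 and 9.3, then 10.1 and 10.8, then 11.4, 15.3 and 13, then 20.6, 11.6 and 11.8 CPM, with overlap in both kinds. The group means of the remaining fibrillar chains Col2a1, Col11a1, Col11a2 and Col24a1 were 0.185 to 9.32 CPM.

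Type IV collagen in most basement membranes is built from Col4a1 and Col4a2, and Col4a5 belongs to a separate network known from kidney and smooth muscle. Col4a1 (chromosome 8, 11198423 to 11312826) was at 40, 45.6 and 59.3 CPM in the sorted shNC libraries, 37 and 41.4 in shFgf21 sorted libraries, 104, 79.1 and 47.6 in shNC tumours and 42.8, 30.6 and 24.1 in shFgf21 tumours. Col4a2 was at 70.2, 72.5 and 76.9, then 63.2 and 58.7, then 135, 130 and 94, then 83.9, 54 and 49.7 CPM. Both were lower in each shFgf21 tumour than in each shNC tumour. Col4a5 (chromosome X, 141475385 to 141689234) went the other way, at 18.2, 17.6 and 17.9, then 29.6 and 28.4, then 37.2, 32.7 and 40.6, then 53.4, 52 and 49.6 CPM, with no overlap in either kind. Its head-to-head neighbour Col4a6, 1308 bases away on the other strand, had no counts. Of the other close pairs, Col4a3 and Col4a4, which lie 71 bases apart on opposite strands, were at 0.0709 to 0.742 CPM in all libraries, and Col9a1 and Col19a1, 9205 bases apart, had no counts.

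Type VI collagen, a filament network between basement membranes and fibres, varied little between tumours. Col6a1 was at 797, 837 and 745 CPM in the sorted shNC libraries, 988 and 908 in shFgf21 sorted libraries, 1252, 1308 and 1414 in shNC tumours and 1798, 1366 and 1324 in shFgf21 tumours. Col6a2 was at 543, 553 and 478, then 582 and 609, then 745, 874 and 938, then 1134, 776 and 755 CPM. Col6a3 was at 1095, 1110 and 1017, then 1254 and 1190, then 2173, 1824 and 2089, then 2377, 2208 and 2264 CPM. All 3 chains were higher without overlap in the shFgf21 sorted libraries, and Col6a3 also in the shFgf21 tumours, where the other 2 overlapped. The alternative chains Col6a4, Col6a5 and Col6a6 had group means of 0.0771 to 4.78 CPM.

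Fibril-associated collagens, which coat fibrils and link them to other matrix, held the gene with the clearest knockdown difference. Col12a1 (chromosome 9, 79598991 to 79718831), known from tendon and stressed matrix, was at 58.7, 62.8 and 66.3 CPM in the sorted shNC libraries, 27.4 and 33.2 in shFgf21 sorted libraries, 182, 24.6 and 37.6 in shNC tumours and 7.17, 10.6 and 6.82 in shFgf21 tumours. The shFgf21 libraries were below the shNC libraries of their kind without overlap. Col14a1, its close relative, was at 25, 14.8 and 16.2, then 13 and 23.9, then 40.6, 4.38 and 7.65, then 7.4, 5.85 and 1.27 CPM, and its groups overlapped in both kinds. Col16a1 was at 342, 384 and 393, then 400 and 393, then 619, 559 and 572, then 632, 361 and 409 CPM, with overlap in tumours.

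The multiplexins Col15a1 and Col18a1 sit in the zone around basement membranes, and Col18a1 is the source of the fragment endostatin. Col15a1 (chromosome 4, 47208161 to 47313167) was at 8.7, 11 and 13.2 CPM in the sorted shNC libraries, 7.16 and 6.75 in shFgf21 sorted libraries, 18, 9.82 and 3.12 in shNC tumours and 0.81, 1.06 and 0.347 in shFgf21 tumours. It was lower in every shFgf21 library than in every shNC library of its kind. Col18a1 was at 122, 129 and 134, then 114 and 147, then 256, 346 and 238, then 307, 179 and 195 CPM, with overlap in both kinds, and it shares 8825 bases of its span with Slc19a1 on the other strand.

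Col8a1, a short-chain collagen of vessel walls, was at 92.2, 86.1 and 86.7 CPM in the sorted shNC libraries, 113 and 116 in shFgf21 sorted libraries, 177, 78.6 and 132 in shNC tumours and 134, 154 and 135 in shFgf21 tumours. Col7a1, the chain of the anchoring fibrils under the epidermis, was at 54.7, 69.4 and 63.1, then 57.2 and 53.6, then 96.1, 104 and 95.7, then 96.5, 60.5 and 69 CPM. Col8a1 was higher without overlap in the shFgf21 sorted libraries and overlapped in tumours, and Col7a1 overlapped in both. No transmembrane collagen had a group mean above 7.31 CPM, the level of Col17a1, a hemidesmosome chain, in shFgf21 tumours.

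**Figure D2:**
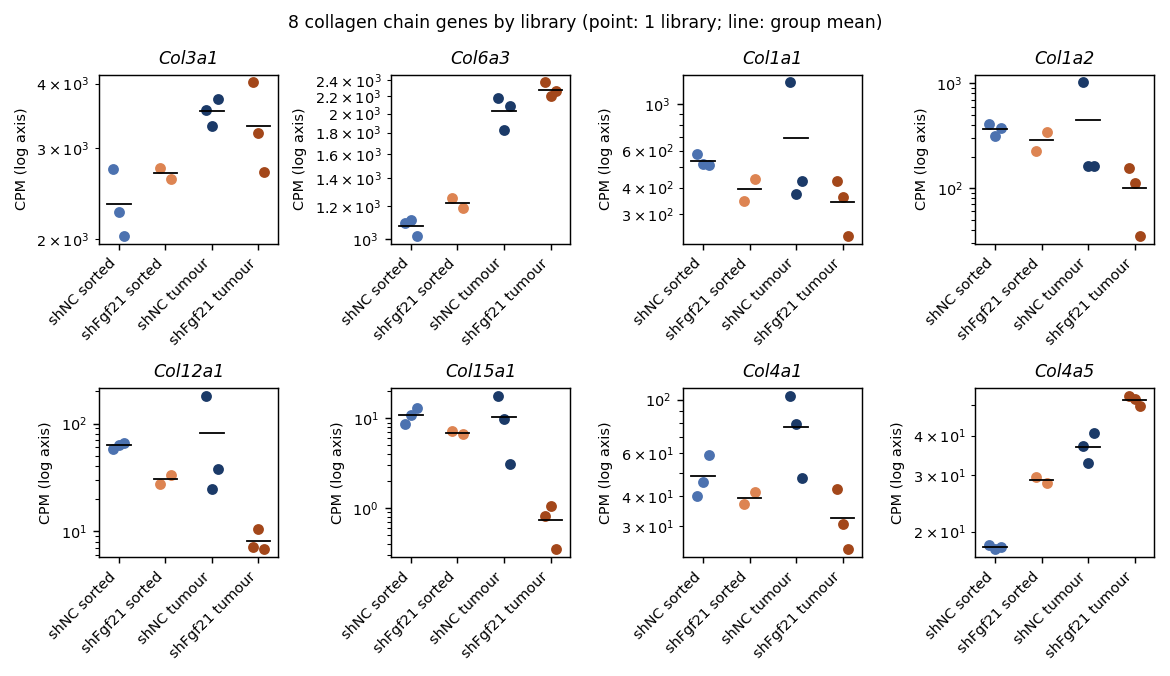
CPM of 8 collagen chain genes (log axis, 1 panel a gene) in the 4 groups, with a point for each library and a line at the group mean. Col12a1 and Col15a1 are lower and Col4a5 and Col6a3 are higher in the shFgf21 groups of both kinds. Col4a1 and Col1a2 are separated in tumours only, Col1a2 narrowly, and Col1a1 in sorted libraries only. In 1 shNC tumour lie the high points of Col1a1, Col1a2 and Col12a1.

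Chains of 1 collagen type were next set against each other within each library, as ratios of FPKM. Type VI kept its proportions, with 2.73 to 3.28 times as much Col6a1 as Col6a2 in all 11 libraries. For type I the ratio of Col1a1 to Col1a2 was 2.99 to 3.81 in the sorted libraries. In tumours it was 2.9, 5.32 and 6.17 in shNC and 6.47, 7.45 and 15.7 in shFgf21, so that shNC tumour replicate 1 was nearest to the sorted libraries and shFgf21 tumour replicate 3 stood far out. The main basement membrane chains stayed close, with a Col4a1 to Col4a2 ratio of 0.331 to 0.525 over all libraries. The ratio of Col4a5 to Col4a1 was 0.564, 0.479 and 0.374 in shNC sorted libraries and 0.993 and 0.85 in shFgf21 sorted libraries. In tumours it was 0.446, 0.512 and 1.06 in shNC and 1.55, 2.11 and 2.55 in shFgf21, again with no overlap. These ratios are descriptions and were not tested.

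**Figure D3:**
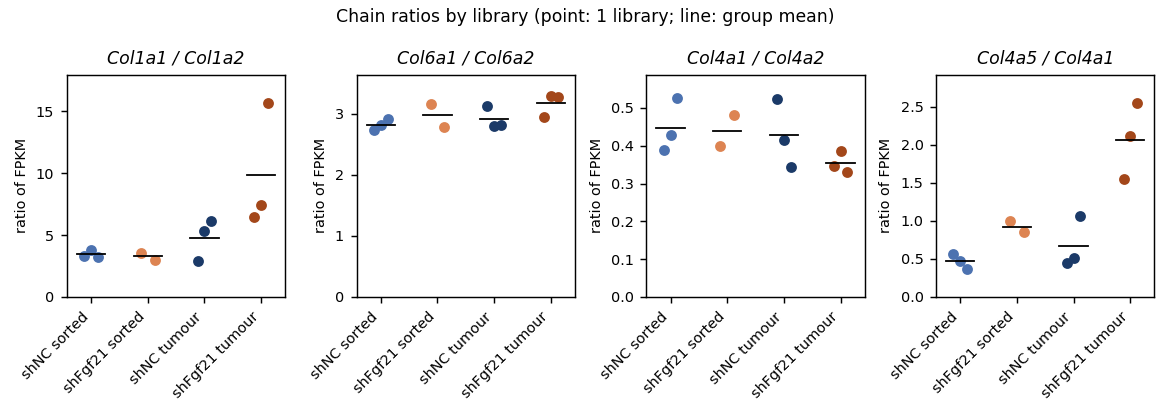
Ratios of FPKM between chains of related collagens, 1 panel a ratio with an axis from 0, with a point for each library and a line at the group mean. Col6a1 over Col6a2 stays at 2.73 to 3.28, Col1a1 over Col1a2 spreads to 15.7 in tumours, and Col4a5 over Col4a1 is higher in the shFgf21 groups.

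In sorted libraries 1 collagen chain, Col12a1, was lower in shFgf21 than in shNC past the threshold, and the rest of the family was not called. Of the 44 genes, 31 passed the filter on low counts, and 15 of these had a log2 fold change above 0 and 16 below it, where 48.2% and 51.8% of all genes did. At an unadjusted p under 0.05 there were 4 higher and 5 lower members, where 5.89% and 5.31% of all genes were. The family's median log2 fold change was -0.02, beside -0.010 over all 16454 genes tested. The 1 call lay beside a background of 0.079% of all genes called (0.0608% lower), by edgeR's quasi-likelihood test at an adjusted p under 0.05.

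Col12a1 fell from 62.6 ± 3.83 CPM (SD, n = 3) to 30.3 ± 4.1 CPM (n = 2), which is -1.07 ± 0.13 on the log2 scale (SE; adjusted p = 0.0489 in edgeR). This call was at the edge of the threshold. Whichever library was left out, the fold change was -1.21 to -0.94 and the adjusted p was 0.0523 to 0.18 in edgeR. DESeq2 kept it (adjusted p = 2.57e-09) and so did limma voom (adjusted p = 0.0398). In the fit of all 4 groups, whose spread includes the tumours, the fold change was -1.05 ± 0.65 and edgeR's adjusted p = 0.959.

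The next chains by p-value did not pass in edgeR. The lower ones were Col1a1 at -0.47 ± 0.13 (adjusted p = 0.282, and -0.30 without shFgf21 replicate 1), Col15a1 at -0.68 ± 0.21 (adjusted p = 0.321), Col4a2 at -0.28 ± 0.10 (adjusted p = 0.378) and Col22a1, a fibril-associated chain of tissue junctions, at -0.67 ± 0.26 (adjusted p = 0.395). The higher ones were Col4a5 at 0.68 ± 0.12 (adjusted p = 0.13), Col8a1 at 0.35 ± 0.09 (adjusted p = 0.257), Col11a2 at 0.55 ± 0.18 (adjusted p = 0.338), Col6a1 at 0.24 ± 0.10 (adjusted p = 0.439) and Col5a1 at 0.21 ± 0.10 (adjusted p = 0.498). DESeq2 called Col4a5 beside Col12a1 (adjusted p = 0.00248 for Col4a5, with 1.41% of all genes called). In 9 members all shFgf21 libraries were above all shNC libraries and in 6 below, where this was so for 16.6% and 13.2% of all genes.

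Macrophage markers differed in share between the same groups, and the share of fibroblast markers overlapped. The 10 macrophage markers took 0.977 to 1.18% of counts in shNC and 1.46 to 1.51% in shFgf21 sorted libraries, with 9 of the 10 above a log2 fold change of 0. Lyz2, at 5768 to 9432 CPM in these libraries, made up most of that share. Of the 10 fibroblast markers 6 were below 0, at 0.127 to 0.154% and 0.0972 to 0.129% of counts, with Pdgfra at 80, 78.7 and 71 CPM with shNC and 84.6 and 77.1 with shFgf21 and the matrix gene Postn at 142, 109 and 136 and then 84.6 and 89.9. Of the 10 fibroblast markers 2 were lower without overlap, Postn and Acta2 (19.3, 19.9 and 22.8, then 15.3 and 18 CPM), and 0 were higher. Over all genes 13.2% and 16.6% were lower and higher without overlap. The part of these markers in the collagen differences was not tested. In bulk samples fewer cells of a type and less RNA per cell cannot be told apart.

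In tumours no collagen chain passed in edgeR's fit of the 6 tumour libraries, although most of the chains with low p-values had negative fold changes. Of 31 members tested 12 had a log2 fold change above 0 and 19 below it (48.8% and 51.2% of all genes), with a median of -0.24 beside -0.007 over 14950 genes. None was called, where the background was 0.0334% of all genes (5 genes). At an unadjusted p under 0.05 there were 8 lower members and 1 higher, against 3.61% and 2.61% of all genes. Without shNC tumour replicate 1 these were 4 lower and 2 higher members, against 5.57% and 5.21% of all genes. DESeq2 called 4 members, all lower (Col12a1, Col15a1, Col4a1 and Col4a2), where it called 0.769% of all genes.

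Col15a1 had a mean of 10.3 ± 7.45 CPM in shNC tumours and of 0.738 ± 0.361 in shFgf21 tumours (SD over 3 tumours a group). Its log2 fold change was -3.80 ± 0.67 (SE; adjusted p = 0.207 in edgeR, and 6.37e-08 in DESeq2), and in edgeR's fit of all 4 groups its adjusted p = 0.0357, which passes. That fit called 26 of all genes, against 5 in the fit of the tumours alone. Col12a1 was at 81.5 ± 87.6 and 8.21 ± 2.11 CPM, a log2 fold change of -3.32 ± 0.72 (edgeR adjusted p = 0.396, DESeq2 adjusted p = 0.027). The basement membrane partners were both at negative values, Col4a1 at a log2 fold change of -1.25 ± 0.30 (edgeR adjusted p = 0.458) and Col4a2 at -0.94 ± 0.23 (edgeR adjusted p = 0.454). Col8a2, a short-chain partner of Col8a1, was at -1.77 ± 0.59 (edgeR adjusted p = 0.67).

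On the higher side, Col4a5 had means of 36.8 ± 3.97 and 51.7 ± 1.91 CPM without and with the Fgf21 hairpin, a log2 fold change of 0.48 ± 0.14 (edgeR adjusted p = 0.593). Col17a1 was at 0.55 ± 0.28, Col2a1 at 0.91 ± 0.62, Col6a3 at 0.16 ± 0.13 and Col6a1 at 0.17 ± 0.15, and none passed (edgeR adjusted p = 0.841, 0.892, 0.913 and 0.931). Each moved by over 1.5 times without 1 library, Col17a1 to 0.27 and Col6a1 to 0.02 without shFgf21 replicate 1, Col6a3 to 0.09 without shNC replicate 2, and Col2a1 to 0.54 without shNC replicate 2 and 1.66 without shNC replicate 1. In 2 members, Col4a5 and Col6a3, all shFgf21 tumours were above all shNC tumours, and in 5, Col15a1, Col12a1, Col4a1, Col4a2 and Col1a2, all were below, where 5.86% and 5.9% of all genes did so.

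Much of the difference in type I collagen rested on shNC tumour replicate 1. Col1a2 was at a log2 fold change of -2.18 ± 0.79 (edgeR adjusted p = 0.715) with it and -0.70 ± 0.48 (adjusted p = 0.63) without it. Col1a1 was at -1.04 ± 0.45 (adjusted p = 0.801) with it and -0.24 ± 0.24 (adjusted p = 0.751) without it, and Col14a1 went from -1.87 ± 0.86 to -0.32 ± 0.60. For Col12a1 the value without it was -1.93 ± 0.27 (adjusted p = 0.0756), for Col15a1 -3.13 ± 0.57 (adjusted p = 0.171), for Col4a1 -0.96 ± 0.28 (adjusted p = 0.344), for Col4a2 -0.84 ± 0.25 (adjusted p = 0.346), for Col8a2 -1.03 ± 0.49 (adjusted p = 0.496) and for Col4a5 0.49 ± 0.16 (adjusted p = 0.365), all in edgeR.

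All 8 endothelial markers, 5 of 6 pericyte markers and 5 of 10 fibroblast markers were highest of the 6 tumours in that same library. The fibroblast markers highest there were Postn, Thy1, Lum, Fap and Acta2, while Dcn and Pdgfrb were highest in shNC replicate 2, Dpt in shNC replicate 6, and Pdgfra and Pdpn in shFgf21 tumours. In tumours Postn was at 332, 80.3 and 68.6 CPM in shNC and 47.7, 42.1 and 17.8 in shFgf21, and Thy1, a surface marker of fibroblasts and T cells, at 14.4, 3.51 and 2.52 and then 0.578, 0.373 and 0.578. The 10 fibroblast markers took 0.239 to 0.26% of counts in shNC and 0.173 to 0.185% in shFgf21 tumours, with 7 of 9 tested below a log2 fold change of 0. Dcn, at 1191 to 1744 CPM in tumours, made up most of that share. The 8 endothelial markers took 0.00218% in shNC tumour replicate 1 and 0.00035 to 0.000665% in the other tumours. No member of that list was at 0 in a whole tumour group, but only 4 of the 8 passed the filter on low counts there. Tek did not pass 0.455 CPM in any tumour and Emcn not 0.974, so their order between tumours rests on few counts. Pericyte markers took 0.0349 to 0.0428% in shNC and 0.0323 to 0.0377% in shFgf21 tumours. This share was mostly Cspg4, at 302 to 378 CPM, while no other marker of that list passed 15.9 CPM in a tumour. A share that rests on 1 gene does not measure a cell type. The part of these cell types in the collagen differences was not tested.

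**Figure D4:**
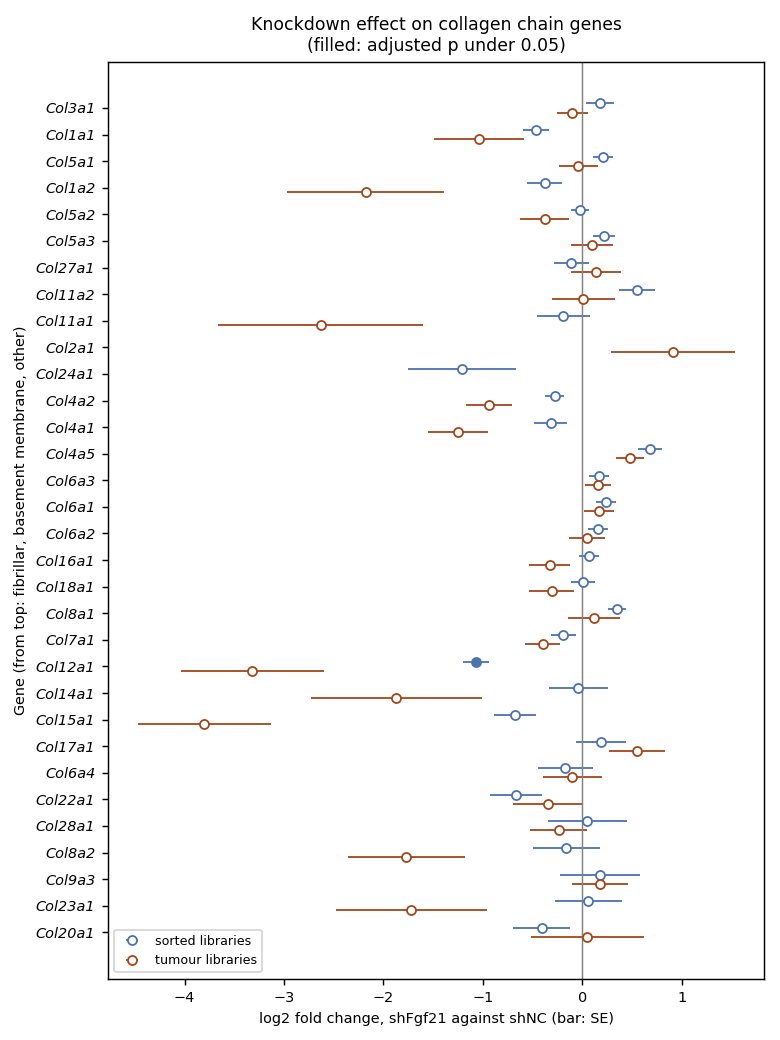
Log2 fold change of shFgf21 against shNC for each collagen chain gene that was tested, in sorted libraries and in tumours, with bars of 1 SE and filled points for an adjusted p under 0.05 in edgeR. Col12a1 in sorted libraries, at -1.07, is the only filled point, and Col15a1 at -3.80 and Col12a1 at -3.32 lie farthest from 0 in tumours.

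Whether the knockdown difference itself differed between sorted libraries and tumours was tested as an interaction over all 4 groups. None of the 33 members tested was called by edgeR, where 0.00577% of all genes were. At an unadjusted p under 0.05 there were 4 members against 4.77% of all genes, each with a more negative value in tumours. These were Col15a1 (3.14 ± 0.79, adjusted p = 0.794), Col12a1 (2.26 ± 0.85, adjusted p = 1), Col4a2 (0.67 ± 0.29) and Col4a1 (0.94 ± 0.41, adjusted p = 1 for both), given as the sorted minus the tumour log2 fold change. Without shNC tumour replicate 1 there were 2 of 33 members, both above 0, against 3.66% of all genes above 0 and 2.8% below. The 2 were Col15a1 at 2.48 ± 0.65 (adjusted p = 0.464) and Col12a1 at 0.88 ± 0.31 (adjusted p = 0.702). Col4a2 and Col4a1 were then at 0.58 ± 0.30 and 0.67 ± 0.38. DESeq2 called Col15a1 alone among the members (3.16 ± 0.76, adjusted p = 0.0296, with 0.185% of all genes called).

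The kinds of sample were then compared within each hairpin group, in contrasts that share no library but use 1 estimate of spread. Among shNC libraries 12 of 33 members were lower and 1 higher in the sorted libraries than in tumours, beside 13.1% lower and 20.3% higher over all genes in edgeR. The median log2 difference of the members was -0.38 beside -0.010 over all genes. Type VI chains were among the lower ones, at -0.92 ± 0.10 for Col6a3 (edgeR adjusted p = 3.11e-05), -0.74 ± 0.13 for Col6a1 (adjusted p = 0.000937) and -0.70 ± 0.16 for Col6a2 (adjusted p = 0.00512). So were Col4a5 at -1.04 ± 0.11 (edgeR adjusted p = 2.4e-05), Col18a1 at -1.13 ± 0.21 (adjusted p = 0.00134), Col3a1 at -0.60 ± 0.16 (adjusted p = 0.0116), Col5a1 at -0.67 ± 0.17, Col5a3 at -0.73 ± 0.18, Col7a1 at -0.66 ± 0.16, Col16a1 at -0.65 ± 0.18, Col4a2 at -0.71 ± 0.19 and Col17a1 at -0.73 ± 0.26. Of 16 alternative analyses Col17a1 was called in 5, and Col3a1, Col5a1, Col4a2 and Col16a1 each in 15.

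The single higher member was Col20a1, a low fibril-associated chain, with means of 2.95 ± 0.616 CPM in the sorted and 0.806 ± 0.4 CPM in the tumour controls (1.88 ± 0.47, edgeR adjusted p = 0.0087). A listed gene on the same strand, 9230112E08Rik, overlaps it by 741 bases and had 672 counts against 285 for Col20a1, so the reads may not be separable. Type I chains did not pass, and shNC tumour replicate 1 was far above the sorted libraries while the other 2 shNC tumours were below them in Col1a2. Without shNC tumour replicate 1, 11 of 33 members were lower and 4 higher, beside 12.2% lower and 21.1% higher over all genes. Those higher were Col12a1 at 1.03 ± 0.22 (edgeR adjusted p = 0.00416), Col14a1 at 1.65 ± 0.55 (adjusted p = 0.0402), Col23a1, a transmembrane chain, at 1.31 ± 0.42 (adjusted p = 0.0327) and Col20a1 at 2.16 ± 0.52 (adjusted p = 0.00809). So the count of higher members in this contrast rests on that library.

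Among shFgf21 libraries 7 members were lower and 4 higher in the sorted libraries, beside 13.6% and 21.6% of all genes. The lower ones were Col6a3 at -0.90 ± 0.12 (edgeR adjusted p = 0.000111), Col4a5 at -0.83 ± 0.13 (adjusted p = 0.000387), Col6a1 at -0.66 ± 0.15, Col6a2 at -0.58 ± 0.18, Col5a3 at -0.60 ± 0.21, Col18a1 at -0.79 ± 0.24 and Col17a1 at -1.08 ± 0.29. The higher ones were Col15a1 at 3.23 ± 0.62 (edgeR adjusted p = 0.00192), Col8a2 at 1.90 ± 0.58 (adjusted p = 0.0251), Col12a1 at 1.88 ± 0.64 (adjusted p = 0.0403) and Col20a1 at 1.44 ± 0.52 (adjusted p = 0.0494). Fewer members were called in this contrast without shFgf21 sorted replicate 1 or 2, or without shFgf21 tumour replicate 1. The share of all genes called in those fits is not given here, so this is no result about the collagens. Of 16 alternative analyses, all 16 called Col6a3, Col4a5 and Col15a1, 15 called Col6a1, 14 each Col17a1 and Col18a1, 13 Col8a2, 12 Col6a2, 8 Col12a1 and 6 each Col5a3 and Col20a1. The macrophage and T cell markers that took up to 1.51% and 0.0567% of counts in sorted libraries, and almost none in tumours, moved with this comparison, and their part in it was not tested.

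**Figure D5:**
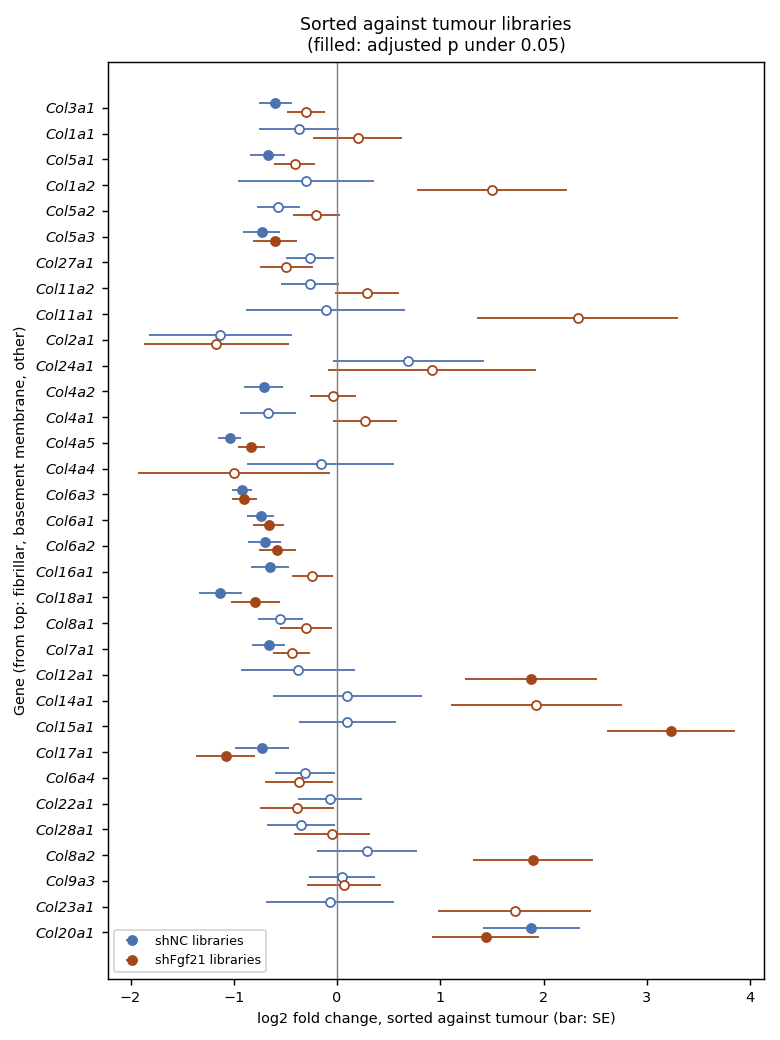
Log2 difference of sorted against tumour libraries for each tested collagen chain gene, within shNC and within shFgf21 libraries, with bars of 1 SE and filled points for an adjusted p under 0.05 in edgeR. Type VI chains, Col4a5 and Col18a1 lie below 0 in both, and Col15a1 is at 3.23 in shFgf21 libraries.

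Genes that make, process and bind collagen were read from 5 lists. None of their members was called in edgeR's fit of either kind, beside 0.079% of all genes called in sorted libraries and 0.0334% in tumours. Among the alternative analyses Serpinh1, Itga1 and Cd93 were each called in 1 of 11 in sorted libraries. In tumours Lox was called in 2 of 13 and Itga11 in 1 of 12, and the other genes named here in none of theirs. The tumour alternatives include the replicate block, whose limits are given below. Of the synthesis and folding genes 18 of 19 were tested, with 13 above a log2 fold change of 0 and 5 below it in sorted libraries and the same counts in tumours. Over all genes 48.2% were above 0 in sorted libraries and 48.8% in tumours, the shares to set beside each list below. At an unadjusted p under 0.05 there were 4 higher and 0 lower members in sorted libraries, beside 5.89% and 5.31% of all genes. In tumours there were 0 in each direction, beside 2.61% higher and 3.61% lower over all genes. Serpinh1, the collagen chaperone HSP47, was at 129, 180 and 143 CPM in shNC and 306 and 461 in shFgf21 sorted libraries, a log2 fold change of 1.33 ± 0.19 (edgeR adjusted p = 0.0879). The lysyl hydroxylase Plod1 was at 0.37 ± 0.12 there (0.22 without shFgf21 replicate 2), and in tumours the prolyl hydroxylase P3h2 was at 0.62 ± 0.28 and the collagen galactosyltransferase Colgalt1 at 0.32 ± 0.20 (0.17 without shNC replicate 2 and 0.58 without shNC replicate 6).

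Of 7 cross-linking genes, 3 were above 0 and 4 below it in both kinds. Lox, which starts cross-links in collagen fibrils, was at 29.3, 22.8 and 30.4 CPM in shNC and 15.5 and 19.1 in shFgf21 sorted libraries (-0.69 ± 0.17, edgeR adjusted p = 0.256). In tumours Lox was at 79.8, 17.7 and 18.3 in shNC and 6.48, 5.47 and 3.75 in shFgf21 (-2.89 ± 0.60, edgeR adjusted p = 0.396), highest in the library where Col1a1 was highest, and without that library its value was -1.78 ± 0.25 (adjusted p = 0.0756). Its relative Loxl4 was at 0.32 ± 0.11 in sorted libraries and 0.27 ± 0.15 in tumours, there 0.17 without shNC replicate 2.

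Of the small proteoglycans that bind fibrils 7 of 8 were tested, and 6 were below 0 in each kind. Decorin (Dcn) was at 1662, 1744 and 1636 CPM in shNC and 1277, 1212 and 1191 in shFgf21 tumours, without overlap (-0.46 ± 0.12, edgeR adjusted p = 0.504), and fibromodulin (Fmod) at -2.18 ± 0.81, or -0.75 ± 0.55 without shNC replicate 1. In sorted libraries Ogn was at -0.87 ± 0.36 (-0.46 without shNC replicate 1) and Prelp at 0.26 ± 0.10. Among receptors, the collagen-binding integrin chain Itga1 was at -0.98 ± 0.17 in sorted libraries (edgeR adjusted p = 0.131) and -2.62 ± 0.79 in tumours, Itga11 at -2.36 ± 0.70 in tumours, and Cd93 at 0.54 ± 0.12 in sorted libraries. Without shNC tumour replicate 1, Itga1 and Itga11 were at -1.58 ± 0.63 and -1.16 ± 0.42 in tumours. Of 11 receptor genes tested in sorted libraries 8 were above 0, and of 9 in tumours 2 were. Of 10 secretion and processing genes 5 and 4 were above 0, with the procollagen protease Bmp1 at -0.21 ± 0.09 in sorted libraries and -0.49 ± 0.16 in tumours, Adamts14 at -0.39 ± 0.15 in sorted libraries and Pcolce2 at 0.37 ± 0.18 in tumours (0.22 without shNC replicate 2).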

How the data were processed

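RNA was sequenced from 5 sorted and 6 tumour libraries. The authors deposited 1 table with read counts and FPKM per gene and library; no value column was left unused. The build is mm10 per the submitters' processing notes, and gene coordinates in the table equal those of GENCODE for all members. Aligner, counter, strand setting and annotation are not given in the sources used, so overlapping genes cannot be separated. Deposited FPKM served only to compare genes per length.

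The deposited counts were tested with edgeR 4.0.16 under R 4.3.3 (filterByExpr, TMM, quasi-likelihood F-test, Benjamini-Hochberg over all genes tested, threshold 0.05). Each knockdown comparison used the libraries of its kind, and the interaction and kind contrasts used all 11. SE is the absolute log2 fold change over the root of the F statistic. CPM in the text uses TMM over the 11 libraries, and fold changes within a kind use TMM over that kind. The script was tested on simulated data first.

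Library values are given for members with a mean of at least 10 CPM in a group, and fold changes for called members and the 5 with the smallest p per direction, plus a few chosen after their values were seen (Col1a1, Col1a2 and Col14a1 in tumours). Of each pathway list the 2 genes with the smallest p are named. Members and lists were chosen with earlier results of these data known. Alternatives were median-ratio size factors, no filter, a 5 CPM filter, DESeq2 1.42.0, limma 3.58.1 voom, other sets of groups in the fit, upper-quartile scaling, leaving out each library and a replicate block.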

Additional observations from a re-analysis of the deposited data

How the results depend on the processing

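The single sorted call, Col12a1, became 0 calls with median-ratio size factors, without a low-count filter, with a 5 CPM filter and in the fit of all 4 groups. Over all genes these fits called 11, 1, 9 and 1, against 13 in the fit given above. DESeq2 gave 2 calls, with 232 over all genes. Without 1 of the shNC libraries there were 0 member calls, where 18 to 34 of all genes were called. Without 1 of the 2 shFgf21 libraries a single one is left in that group. Col12a1 was then at -0.94 without replicate 1 and -1.21 without replicate 2. In tumours 0 calls became 4 with DESeq2 and 1 (Col15a1) with all 4 groups in the fit. Over all genes these called 115 and 26, against 5 in edgeR's fit of the tumours. Member calls stayed at 0 in every edgeR fit without 1 library, where 0 to 8 of all genes were called. The replicate block, whose limits are given below, gave 4. The interaction had 0 calls in edgeR, also without any 1 library, and 1 in DESeq2. Members called between kinds of sample were 10 to 15 among shNC libraries when 1 library was left out, where 4542 to 6020 of all genes were called. Among shFgf21 libraries the 7 lower and 4 higher members became 7 and 8 without shNC tumour replicate 1, beside 14.7% and 24% of all genes. Without the shFgf21 libraries named above fewer were called, but the share of all genes is not given there, so this is no result about the collagens. The cause of these changes was not tested. No knockdown fold change given in the text changed sign under the alternatives run for it.

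Numbers 1 and 2 occur in both tumour groups. Deviations from the group means of same-numbered tumours correlated at 0.165 and -0.153 across 14950 genes, which are not independent. With so few tumours a group, these values cannot decide whether same-numbered tumours pair, and no label says that they do. The replicate block moved the calls over all genes from 5 to 131 and those of members from 0 to 4 (Col12a1, Col15a1, Col1a2 and Col4a1). In that fit shNC tumour replicate 6 and shFgf21 tumour replicate 3 have no same-numbered partner and are each fitted alone. The effect then rests on numbers 1 and 2, with little left to measure scatter, so no conclusion is drawn from these calls. Chains with at most 3 counts give no level at this depth.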
